A study of Sus scrofa with 9 samples.

Results

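The genes described here encode the enzymes, transporters and regulators that take glucose through glycolysis, store and release it as glycogen, admit pyruvate to the mitochondrion and oxidise it in the tricarboxylic acid (TCA) cycle. A list of 55 genes was looked up by gene symbol in a table of 25149 pig genes, and 44 were found, 21 of glycolysis, 4 of glycogen metabolism, 5 of pyruvate entry and 14 of the TCA cycle. Of these, 39 passed the filter of at least 1 TPM in at least 3 hearts. TPM values are read counts divided by gene length and scaled to the same total in every heart, so that levels may be compared between genes.

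Glycolysis converts glucose to pyruvate in the cytosol, glycogen is the store from which heart muscle draws glucose when perfusion fails, and the pyruvate dehydrogenase complex, which is switched off by pyruvate dehydrogenase kinases, decides how much pyruvate enters the TCA cycle. The adult heart burns mainly fatty acids and turns to glucose and glycogen under ischemia. Several steps are run by alternative enzymes encoded by different genes, one typical of muscle and another of other tissues, or one in the cytosol and one in mitochondria.

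The samples were myocardium of female Yorkshire pigs aged 4 to 6 months, in a model of donation after circulatory death with 15 min of warm ischemia in every group. In the NRP + SCS 2 h group (pigs 24, 25 and 29), donors received 60 min of normothermic regional perfusion (NRP), which returns warm blood to the organs inside the donor, and hearts were kept for 2 h in static cold storage (SCS) at 4 °C. In the NRP + HOPE 24 h group (pigs 27, 28 and 30), the same NRP was followed by 24 h of hypothermic oxygenated perfusion (HOPE) at 8 °C, and in the No NRP + HOPE 2 h group (pigs 31, 33 and 34) hearts were procured without NRP and kept for 2 h in HOPE at 8 °C. All 9 hearts then were rewarmed for 2 h by normothermic machine perfusion (NMP) and biopsied at the apex when it ended, so the values describe rewarmed, reperfused tissue and there was no unperfused control. Storage method, duration and temperature changed together between the NRP groups, and NRP, method and temperature changed together between the 2 h groups, so these cannot be told apart. Because RNA came from bulk tissue, fewer cells of a type and less RNA per cell cannot be told apart either.

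The labels name cardiomyocytes, and 6 of 10 cardiomyocyte markers were found, with a summed level of 22647 to 43212 TPM over the 9 hearts. Other cell types were also present. Fibroblast markers, 5 of 6 found, summed to 669 to 982 TPM in NRP + SCS 2 h, 763 to 1116 TPM in NRP + HOPE 24 h and 1020 to 1150 TPM in No NRP + HOPE 2 h. Erythroid markers, 4 of 6 found, summed to 72.3 to 136, 74.1 to 430 and 226 to 379 TPM in the same order. Endothelial markers, 4 of 6 found, summed to 337 to 370, 173 to 375 and 160 to 348 TPM in NRP + SCS 2 h, NRP + HOPE 24 h and No NRP + HOPE 2 h. Macrophage markers, 4 of 6 found, ranged from 16.0 to 50.8 TPM and lymphocyte markers, 3 of 5 found, from 3.42 to 17.6 TPM, overlapping in all groups. Smooth muscle markers, 4 of 5 found with MYH11 listed at 0, summed to 258 to 382 TPM in NRP + SCS 2 h, 188 to 308 TPM in NRP + HOPE 24 h and 358 to 426 TPM in No NRP + HOPE 2 h, without overlap between the HOPE groups. Neutrophil markers, 3 of 5 found, summed to 2.02 to 13.2 TPM in NRP + SCS 2 h, 0.357 to 3.89 TPM in NRP + HOPE 24 h and 0 to 0.343 TPM in No NRP + HOPE 2 h with CSF3R listed at 0, so that the last group overlapped with neither of the others, while the adipocyte marker PLIN1 reached at most 0.21 TPM and the skeletal muscle myosins MYH2 and MYH4 were listed at 0. The skeletal muscle list, 3 of 5 found, therefore rested on the actin ACTA1, which heart muscle also expresses, and summed to 4914 to 5520 TPM in NRP + SCS 2 h, 3337 to 6923 TPM in NRP + HOPE 24 h and 2504 to 4898 TPM in No NRP + HOPE 2 h, without overlap between the 2 h groups. The part of these cell types in the differences between groups was not tested.

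One heart stood apart across the pathway. Pig 30 of the NRP + HOPE 24 h group had the highest level of all 9 hearts in 31 of the 39 members, or 79.5%, against 33.8% of all genes tested. The 44 members named in the table summed to 8313 TPM in pig 30 and to 3933 and 4104 TPM in the other hearts of its group, pigs 27 and 28, whereas the NRP + SCS 2 h hearts held 4420 to 6011 TPM and the No NRP + HOPE 2 h hearts 4220 to 5096 TPM. Pigs 27 and 28 thus held the lowest sums and pig 30 the highest, and in the mean log2 level of each step pig 30 was the highest heart while pigs 27 and 28 were below the mean of all hearts. The mitochondrially encoded genes took 38.2% of all TPM in pig 30 and 44.8% to 55.3% in the other 8 hearts, and a larger share there leaves less of the fixed total for nuclear genes. With these 13 genes left out, the members made up 1.35% of the remaining TPM in pig 30 and 0.829% to 1.19% elsewhere. Pig 30 was then highest in 22 of 39 members. After median-of-ratios scaling, which sets the typical gene to the same level in every heart, it was highest in 16. The share of all genes was not counted under either scaling, so these counts cannot be set against the 33.8%. The coefficient of variation was largest in NRP + HOPE 24 h for 30 of the 39 members, with a median of 43.6% there, 17.4% in NRP + SCS 2 h and 18.1% in No NRP + HOPE 2 h. Over all genes tested the medians were 38.8%, 22.3% and 32.2% in the same order. The spread was thus also widest in NRP + HOPE 24 h over the whole table, but by less than among the members. The share of all genes with their largest coefficient of variation in that group was not counted.

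**Figure D1:**
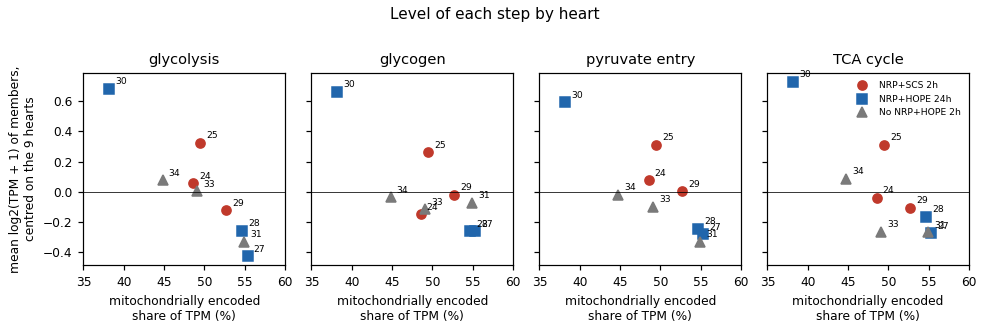
Each panel plots, for 1 step, the mean log2(TPM + 1) of its members in a heart, centred on the 9 hearts, against the mitochondrially encoded share of TPM in percent. Points are hearts with their pig numbers; pig 30 lies highest in all 4 panels, at a share of 38.2%, while pigs 27 and 28 of the same group lie below 0.

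The transcript levels were led by enzymes of the later reactions of glycolysis. ENO3, the muscle enolase, averaged 841 TPM over the 9 hearts (544 to 1361 TPM), LDHB, the heart-type lactate dehydrogenase subunit, 610 TPM (351 to 1219 TPM), and PKM, which makes pyruvate and ATP, 415 TPM (303 to 722 TPM). In the TCA cycle, IDH2, the mitochondrial NADP-dependent isocitrate dehydrogenase, averaged 497 TPM (365 to 787 TPM), followed by the succinyl-CoA ligase subunit SUCLG1 at 234 TPM and mitochondrial malate dehydrogenase MDH2 at 224 TPM. The regulators among the members were far less abundant, in contrast to PDK4, a kinase outside the member list, at 259.9 TPM. PFKFB2 and PFKFB3, which make and remove the phosphofructokinase activator fructose 2,6-bisphosphate, averaged 15.2 and 27.0 TPM, HK2, the insulin-responsive hexokinase, 12.2 TPM, and PDK2, a pyruvate dehydrogenase kinase, 26.7 TPM. Transcripts of pyruvate carboxylase PC, which feeds pyruvate into the cycle as oxaloacetate, averaged 1.97 TPM, and those of SLC16A3, a lactate exporter, 1.59 TPM.

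Of the members named in the table, 5 did not pass the filter. PFKFB1, TPI1 and PYGB were listed at 0 in all hearts, the insulin-responsive glucose transporter SLC2A4 was above 0 in pig 31 alone, at 0.0739 TPM, and the lactate and pyruvate transporter SLC16A1 reached at most 0.579 TPM. TPI1 encodes a glycolytic enzyme that every cell uses and SLC2A4 the main glucose transporter of heart muscle, so a listed 0 may be a failed estimate and says nothing about expression. Only uniquely mapped reads were counted, and genes with near-identical copies elsewhere in the genome, as is common among glycolytic enzymes, are uncertain for that reason.

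Another 6 listed genes had no row under their symbol but were paired with a row by gene identifier, and they are kept apart from the counts of members, though 3 of them enter the ratios given further on. GAPDH was the most abundant of them, with a mean of 5266 TPM and a range of 3742 to 6635 TPM over the 9 hearts, followed by the pyruvate dehydrogenase subunit PDHA1 at 132 TPM, the mitochondrial pyruvate carrier subunit MPC2 at 93.8 TPM and LDHA at 57.1 TPM. None of these 6 genes reached an unadjusted p under 0.05 in any comparison. ALDOA, MPC1, CS, IDH3A and GOT2 were matched neither way and were not analysed here.

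**Figure D2:**
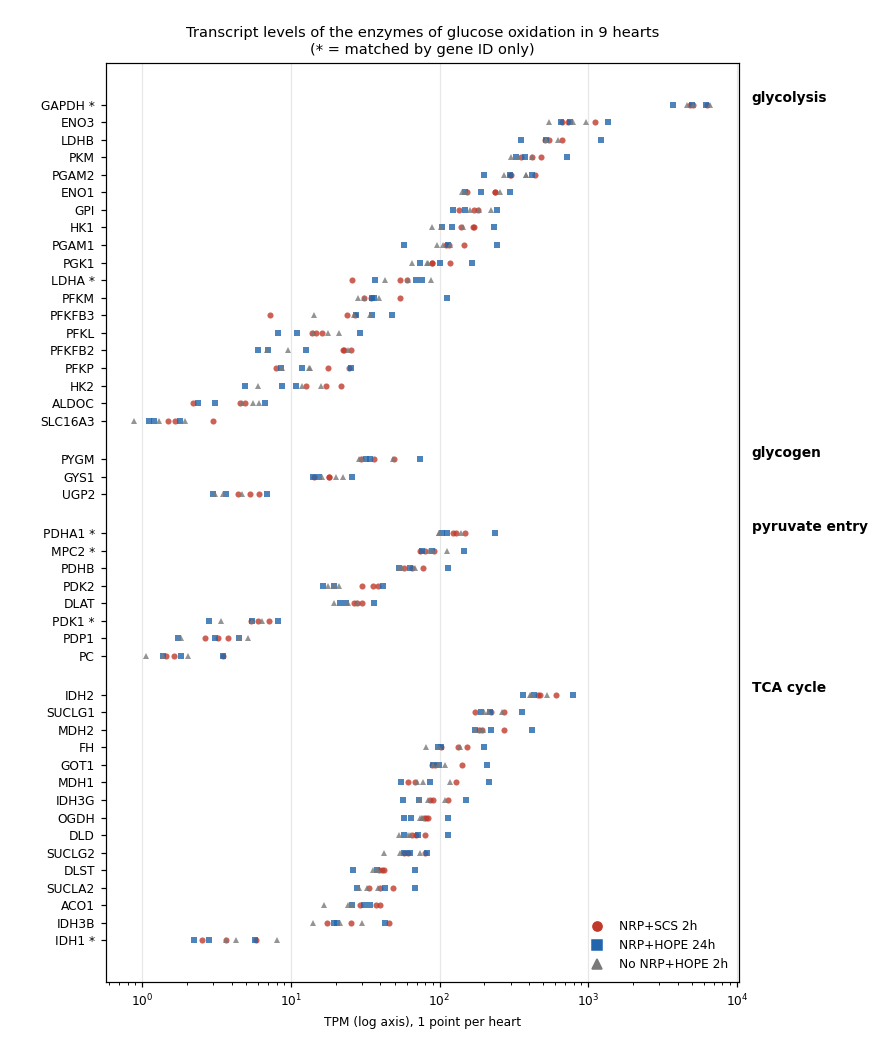
Each point is the level of a gene in 1 heart, in TPM on a log axis, for the 39 members that passed the filter and the 6 genes paired by identifier (asterisk), ordered by mean level within each step. Levels span from near 1 TPM for SLC16A3 and PC to 1361 TPM for ENO3 and 6635 TPM for GAPDH, and the groups overlap for most genes.

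To ask whether 24 h of HOPE left the pathway at another level than 2 h of SCS, both after NRP, the NRP + HOPE 24 h hearts were compared with the NRP + SCS 2 h hearts. Among the 39 members, 3 regulators of the upper part of glycolysis differed at an unadjusted p under 0.05, PFKFB3 being higher and PFKFB2 and HK2 lower. These were also the only members whose hearts did not overlap between the groups. No member passed an adjusted p under 0.05 in limma (Benjamini-Hochberg over 11782 genes), as against 0.0255% of all genes tested. At an unadjusted p under 0.05, 1 member was higher, or 2.56%, against 1.82% of all genes, and 2 were lower, or 5.13%, against 3.14%. The hearts did not overlap for 1 higher member, against 2.5% of all genes, and for 2 lower members, against 7.32%, so the members' shares were not far from those of the table.

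PFKFB2, the cardiac form of the bifunctional enzyme, was measured at 25.2, 22.4 and 22.9 TPM in the NRP + SCS 2 h hearts and at 6.96, 5.96 and 12.7 TPM in the NRP + HOPE 24 h hearts. All NRP + SCS 2 h hearts were close together and above every NRP + HOPE 24 h heart. The group means were 23.5 ± 1.49 and 8.53 ± 3.62 TPM (SD, n = 3), and the log2 fold change on the TPM + 1 scale was -1.43 (SE 0.41, limma unadjusted p = 0.00384, adjusted p = 0.520). Its hearts did not overlap after median-of-ratios scaling or without the mitochondrially encoded genes. With array weights, which count pig 30 least, the adjusted p was 0.0417, and none of the other 17 alternatives gave an adjusted p under 0.05.

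PFKFB3, the inducible form with predominant kinase activity, was measured at 23.8, 27.0 and 7.20 TPM after SCS and at 27.2, 34.9 and 48.0 TPM after 24 h of HOPE. Pig 27 was barely above pig 25, and pig 29 was far below all other hearts. The log2 fold change was 1.04 (SE 0.46, limma unadjusted p = 0.0393, adjusted p = 0.965). Without pig 29 it was 0.48, with an unadjusted p of 0.258 in limma, so the size of the difference rested on that heart, and the unadjusted p was under 0.05 in 13 of 18 alternatives.

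HK2 was measured at 12.6, 21.8 and 17.1 TPM after SCS and at 4.93, 8.69 and 10.8 TPM after 24 h of HOPE. Every NRP + SCS 2 h heart was above every NRP + HOPE 24 h heart. The group means were 17.2 ± 4.60 and 8.14 ± 2.97 TPM (SD, n = 3), with a log2 fold change of -1.02 (SE 0.39, limma unadjusted p = 0.0199, adjusted p = 0.918). The unadjusted p was 0.0827 without pig 25 and 0.0900 without pig 27. HK1, the constitutive hexokinase and the more abundant of the pair, stood at 159 ± 16.3 TPM after SCS and 153 ± 70.0 TPM after 24 h of HOPE (SD, n = 3).

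By step, the members together lay near 0 in this comparison. In glycolysis, the median log2 fold change over 17 members was 0.0041, in glycogen metabolism 0.083 over 3, in pyruvate entry -0.083 over 5 and in the TCA cycle 0.014 over 14, beside -0.12 over all genes tested. Of all 39 members, 21 were above 0 and 18 below, with standard errors of 0.28 to 0.46 on the log2 scale. These medians depended on pig 30. Without it, 38 of 39 members were below 0, with a median of -0.32, the same as the median of all genes (-0.32), and the step medians were -0.42, -0.17, -0.32 and -0.27 in the order given.

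PFKM, the muscle phosphofructokinase that commits glucose to glycolysis, was measured at 30.9, 54.3 and 34.5 TPM after SCS and at 35.3, 36.4 and 113 TPM after 24 h of HOPE. Only pig 30 lay outside the range of the SCS hearts, and the log2 fold change of 0.44 (SE 0.41) was -0.11 without it and 0.72 without pig 27. LDHB was at 513, 668 and 547 TPM after SCS and at 351, 522 and 1219 TPM after 24 h of HOPE, with pig 27 the lowest and pig 30 the highest of all hearts and a log2 fold change of 0.085 (SE 0.36), or -0.42 without pig 30 and 0.48 without pig 27. In the TCA cycle, the malate dehydrogenases MDH1 and MDH2 had the largest log2 fold changes among members averaging at least 5 TPM, 0.30 (SE 0.44) and 0.24 (SE 0.31), and MDH1 was at 54.9, 86.2 and 214 TPM in pigs 27, 28 and 30 against 68.6, 129 and 61.5 TPM in pigs 24, 25 and 29. Their groups overlapped, and without pig 30 the log2 fold changes were -0.24 and -0.13, and without pig 27 they were 0.73 and 0.51.

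In glycogen metabolism, PYGM, the muscle phosphorylase that releases glucose from the store, was measured at 29.5, 49.4 and 36.1 TPM after SCS and at 34.2, 32.1 and 74.2 TPM after 24 h of HOPE. GYS1, the muscle glycogen synthase, was at 14.2, 18.1 and 18.1 TPM and at 15.5, 14.1 and 25.7 TPM. Both overlapped between the groups, with log2 fold changes of 0.21 (SE 0.36) and 0.083 (SE 0.30), which were -0.17 and -0.17 without pig 30 and 0.42 and 0.24 without pig 28. UGP2, which makes the UDP-glucose used by the synthase, lay between 2.99 and 6.93 TPM in all hearts.

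In the pyruvate dehydrogenase complex, the subunit PDHB was at 57.7, 76.9 and 65.3 TPM after SCS and at 53.2, 62.9 and 114 TPM after 24 h of HOPE. DLAT, its acetyltransferase core, was at 26.6, 29.9 and 28.0 TPM and at 23.5, 21.3 and 36.2 TPM. Pig 30 was above all SCS hearts for both genes, and pigs 27 and 28 were below all of them for DLAT. The log2 fold changes were 0.13 (SE 0.31) and -0.094 (SE 0.29), and -0.19 and -0.32 without pig 30, the highest values with 1 heart left out being 0.35 and 0.051. PDK2 was at 38.4, 35.9 and 30.0 TPM after SCS and at 19.6, 16.5 and 41.3 TPM after 24 h of HOPE, a log2 fold change of -0.52 (SE 0.33, limma unadjusted p = 0.142, adjusted p = 0.993) that was -0.91 without pig 30 and -0.27 without pig 28.

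**Figure D3:**
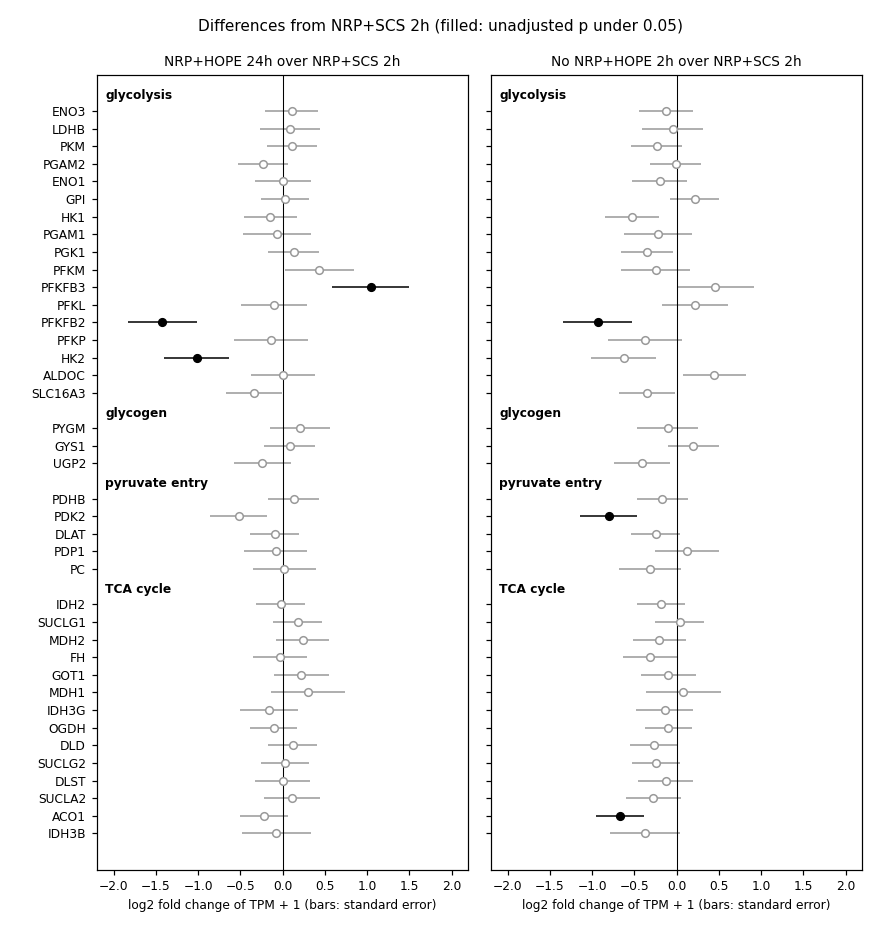
Log2 fold changes on the TPM + 1 scale, with standard errors as bars, of the 39 members against NRP + SCS 2 h, for NRP + HOPE 24 h (left) and No NRP + HOPE 2 h (right). Filled points have an unadjusted p under 0.05 in limma: PFKFB3, PFKFB2 and HK2 on the left, PFKFB2, PDK2 and ACO1 on the right; both panels share the NRP + SCS 2 h hearts.

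The No NRP + HOPE 2 h hearts were next compared with the NRP + SCS 2 h hearts. These groups differed in NRP, storage method and temperature together, so a difference cannot be assigned to NRP. Levels were mostly a little lower in No NRP + HOPE 2 h. Of the 39 members, 31 were below 0 and 8 above, with a median log2 fold change of -0.20, whereas 6803 of the 11782 genes tested were below 0, with a median of -0.07. By step the medians were -0.22 in glycolysis, -0.11 in glycogen metabolism, -0.25 in pyruvate entry and -0.19 in the TCA cycle, where 12 of 14 members were below 0. Without pig 25 these medians were -0.10, 0.089, -0.06 and -0.06, and the glycogen median was also above 0 without pig 33 (0.026) and at a mean of at least 5 TPM (0.046). With 1 heart left out at a time, the median over all members ranged from -0.27 to -0.06, the value nearest 0 being without pig 25, and with median-of-ratios scaling it was -0.10, with 27 members below 0. Without pig 25 the median of all genes was -0.08, and without pig 33 the members were at -0.13 and all genes at -0.11, so the distance of the members from the table rested on these hearts.

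No member passed an adjusted p under 0.05 in limma, as against 0.0509% of all genes. At an unadjusted p under 0.05, no member was higher, against 2.57% of all genes, and 3 were lower, or 7.69%, against 4.65%: PFKFB2, PDK2 and ACO1. This count was 0 without pig 24 and without pig 31. Hearts did not overlap for 6 lower members, or 15.4%, against 10.3% of all genes, and for no higher member, against 4.44%. The 6 were PGK1, PDK2, ACO1, OGDH, DLST and DLD, so that 4 of the 14 TCA cycle members, or 28.6%, were among them. After median-of-ratios scaling the lower members without overlap were 4, PFKFB2, UGP2, PDK2 and ACO1, or 10.3%, against 9.92% of all genes, so the members' share was then near that of the table. With the mitochondrially encoded genes left out they were 6, HK1, PFKFB2, PGK1, UGP2, PDK2 and ACO1, or 15.4%, against 12.97%, and ACO1 was the only TCA cycle member in either case.

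PDK2, the kinase of this family that is present in most tissues and that inhibits pyruvate dehydrogenase, was measured at 38.4, 35.9 and 30.0 TPM after NRP + SCS 2 h and at 17.7, 21.025 and 19.5 TPM in No NRP + HOPE 2 h. The No NRP + HOPE 2 h hearts were tightly grouped and well below the others, with means of 19.4 ± 1.66 against 34.8 ± 4.35 TPM (SD, n = 3). The log2 fold change was -0.80 (SE 0.33, limma unadjusted p = 0.0306, adjusted p = 0.640). Over the 18 alternatives it ranged from -0.91 to -0.71, and the unadjusted p was under 0.05 in 14.

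ACO1, the cytosolic aconitase that also serves as an iron-regulatory RNA-binding protein, was measured at 39.5, 29.3 and 37.6 TPM after NRP + SCS 2 h and at 16.6, 24.1 and 25.7 TPM in No NRP + HOPE 2 h. Each No NRP + HOPE 2 h heart was lower than each NRP + SCS 2 h heart. The log2 fold change was -0.67 (SE 0.28, limma unadjusted p = 0.0337, adjusted p = 0.657), and without pig 31 it was -0.48 with an unadjusted p of 0.137. The unadjusted p was under 0.05 in 15 of 18 alternatives. Erythroid markers, given for the same groups as 226 to 379 against 72.3 to 136 TPM, lay in the opposite direction.

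PFKFB2 was at 6.90, 9.52 and 24.2 TPM in pigs 31, 33 and 34, against 22.4 to 25.2 TPM after NRP + SCS 2 h. Pigs 31 and 33 were as low as the NRP + HOPE 24 h hearts, and pig 34 was at the level of the NRP + SCS 2 h hearts. The log2 fold change of -0.94 (SE 0.41, limma unadjusted p = 0.0390, adjusted p = 0.680) thus averaged unlike hearts. It was -0.59 without pig 31 and -1.43 without pig 34, and its unadjusted p was under 0.05 in 12 of 18 alternatives. HK2 was at 6.003, 16.0 and 11.9 TPM, with a log2 fold change of -0.62 (SE 0.39) and overlapping groups, and this was -0.26 without pig 31 and -0.91 without pig 33.

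OGDH, DLST and DLD encode the components of the 2-oxoglutarate dehydrogenase complex, which oxidises 2-oxoglutarate in the TCA cycle, DLD being shared with pyruvate dehydrogenase. OGDH was at 80.5, 83.9 and 78.1 TPM after NRP + SCS 2 h and at 74.2, 76.1 and 76.2 TPM in No NRP + HOPE 2 h. DLST was at 39.3, 42.6 and 40.8 TPM and at 38.2, 35.5 and 38.3 TPM. DLD was at 65.5, 69.8 and 79.5 TPM and at 62.9, 53.1 and 61.6 TPM.

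All 3 genes were lower in every No NRP + HOPE 2 h heart, but by little, with log2 fold changes of -0.10 (SE 0.28), -0.13 (SE 0.32) and -0.27 (SE 0.29) and unadjusted p from 0.3602 to 0.736 in limma. The separation was lost for all 3 after median-of-ratios scaling and when the mitochondrially encoded genes were omitted. With the former, the log2 fold changes were 0.0036, -0.029 and -0.17. PGK1, the first ATP-making enzyme of glycolysis, was at 89.5, 117 and 89.0 TPM after NRP + SCS 2 h and at 65.5, 83.2 and 82.2 TPM in No NRP + HOPE 2 h, with a log2 fold change of -0.35 (SE 0.30), or -0.22 without pig 25. Its hearts stayed apart without the mitochondrially encoded genes and overlapped after median-of-ratios scaling.

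Among the remaining members, the log2 fold changes above 0 reached 0.46 (SE 0.46) for PFKFB3, with overlapping groups, which was -0.11 without pig 29 and 0.80 without pig 31. IDH3B, a subunit of the NAD-dependent isocitrate dehydrogenase, was at 25.3, 45.4 and 17.5 TPM after NRP + SCS 2 h and at 21.2, 14.0 and 30.3 TPM in No NRP + HOPE 2 h, with a log2 fold change of -0.37 (SE 0.41) that was -0.014 without pig 25 and -0.80 with array weights. DLAT was at 27.7, 19.3 and 24.3 TPM in No NRP + HOPE 2 h, with a log2 fold change of -0.25 (SE 0.29), or -0.11 without pig 33 and -0.41 with array weights. For GYS1 and PYGM the log2 fold changes were 0.20 (SE 0.30) and -0.11 (SE 0.36), the former being 0.087 without pig 24 and 0.32 without pig 31 and the latter 0.089 without pig 25 and -0.34 without pig 31, and all 4 genes overlapped between the groups.

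**Figure D4:**
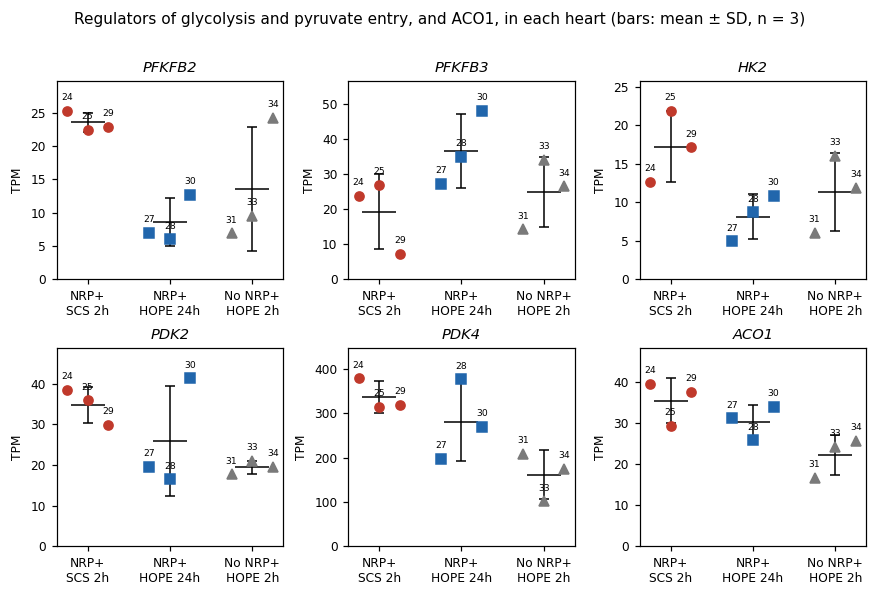
Levels in TPM of 6 genes in each heart, with pig numbers; horizontal marks and bars give the mean ± SD of 3 hearts. PFKFB2 and HK2 are lower in every NRP + HOPE 24 h heart than in every NRP + SCS 2 h heart, and PDK2, PDK4 and ACO1 are lower in every No NRP + HOPE 2 h heart than in every NRP + SCS 2 h heart.

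The HOPE groups were also set side by side, which differed in NRP and in storage time, with the method and temperature the same. No member reached an adjusted or an unadjusted p under 0.05 in limma, as against 0.0509% of all genes for the former and 2.78% higher and 3.23% lower for the latter. Hearts did not overlap for 1 higher member, ACO1, against 2.97% of all genes, and for no lower member, against 4.51%. These counts depended on the scaling. After median-of-ratios scaling the higher members without overlap were 6, PFKM, PFKFB3, PGK1, PKM, UGP2 and ACO1, or 15.4%, against 8.30% of all genes, and with the mitochondrially encoded genes left out they were 3, PFKM, PGK1 and ACO1, or 7.69%, against 4.78%. At an unadjusted p under 0.05 in limma, 3 members were higher under the former scaling, against 11.7% of all genes in either direction, 4 were higher without pig 27, against 8.38%, and 2 were lower without pig 30, against 9.59%. ACO1 was at 31.2, 25.8 and 33.9 TPM in NRP + HOPE 24 h, where pig 28 was barely above the highest No NRP + HOPE 2 h heart, and the log2 fold change was 0.45 (SE 0.28), or 0.24 with array weights. Of the 39 members, 29 were above 0, with a median log2 fold change of 0.22, beside 5437 of 11782 genes and a median of -0.03 over all genes. Without pig 30 the count was 11 and the median -0.10, beside a median of -0.23 over all genes. PFKM had the largest log2 fold change, 0.68 (SE 0.41, limma unadjusted p = 0.117, adjusted p = 0.904), and was 0.14 without pig 30, its highest heart. PFKFB3 followed in glycolysis with 0.59 (SE 0.46), or 0.38 without pig 30 and 0.23 with array weights, and GYS1 was at -0.11 (SE 0.30), or -0.37 without pig 30, -0.43 with array weights and 0.045 without pig 28. The log2 fold changes of MDH2, PDHB, PDK2 and PYGM were 0.44 (SE 0.31), 0.30 (SE 0.31), 0.28 (SE 0.33) and 0.31 (SE 0.36). Without pig 30 they were 0.078, -0.023, -0.10 and -0.070, and their highest values with another heart left out were 0.71, 0.52, 0.54 and 0.54.

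In a test of any difference among the 3 groups, no member passed an adjusted p under 0.05 in limma, as against 0.102% of all genes. PFKFB2 alone passed the unadjusted threshold (limma unadjusted p = 0.0119, adjusted p = 0.535), which is 2.56% of the members against 6.26% of all genes.

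A ratio of 2 genes within a heart does not change with scaling, so related enzymes were compared in this way. Of 18 pairs, 13 could be computed, in 3 a partner was not matched, and in 2 a partner was listed at 0, PYGB in all hearts and SLC16A1 in some. Among the 13, the pairs of LDHA, PDK1 and IDH1 rest on genes paired with their rows by identifier. In every pair but PFKFB3 and PFKFB2, the same partner was the more abundant in every heart. LDHA was at 0.0502 to 0.169 times the TPM of LDHB, ENO1 at 0.155 to 0.470 times that of ENO3, PGAM1 at 0.194 to 0.585 times that of PGAM2, HK2 at 0.0464 to 0.129 times that of HK1, IDH1 at 0.00553 to 0.0152 times that of IDH2, and cytosolic MDH1 at 0.320 to 0.630 times that of mitochondrial MDH2. SUCLG2, of the GTP-forming succinyl-CoA ligase, was at 1.205 to 2.06 times the TPM of SUCLA2, of the ATP-forming one. The LDHA to LDHB ratio, which relates the muscle-type to the heart-type lactate dehydrogenase, overlapped between all groups.

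The ratio of PFKFB3 to PFKFB2 differed most. On the log2 scale it was -0.08, 0.27 and -1.67 after NRP + SCS 2 h, 1.97, 2.55 and 1.92 after NRP + HOPE 24 h, and 1.04, 1.84 and 0.13 in No NRP + HOPE 2 h. PFKFB3 thus stood at 3.79 to 5.86 times PFKFB2 in every NRP + HOPE 24 h heart and at 0.314 to 1.204 times in the NRP + SCS 2 h hearts, with No NRP + HOPE 2 h at 1.10 to 3.58 times. The NRP + HOPE 24 h hearts were above all others, by a mean of 2.64 log2 units relative to NRP + SCS 2 h and 1.14 over No NRP + HOPE 2 h (two-sided exact permutation p = 0.1 for each, the smallest that 3 against 3 hearts allow). Over the 3 groups the exact permutation p was 0.0143, and 0.0929 when adjusted over the 13 pairs. Leaving out 1 heart at a time, the difference from NRP + SCS 2 h ranged from 2.05 to 3.02 log2 units, and that from No NRP + HOPE 2 h from 0.70 without pig 34 to 1.56 without pig 33.

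The ratio of PFKL, the liver-type phosphofructokinase, to PFKM ordered the groups differently. On the log2 scale it was -1.15, -1.75 and -1.23 after NRP + SCS 2 h, -2.11, -1.74 and -1.96 after NRP + HOPE 24 h, and -1.02, -0.79 and -0.88 in No NRP + HOPE 2 h. The No NRP + HOPE 2 h hearts were above all others, by 0.49 log2 units relative to NRP + SCS 2 h and 1.04 over NRP + HOPE 24 h. The first of these differences was 0.30 without pig 25 and at most 0.60 with any other heart left out. The exact permutation p was 0.1 for each and 0.00714 over the 3 groups, or 0.0929 adjusted over the 13 pairs. In NRP + HOPE 24 h, pig 30 was between the other hearts of its group in this ratio, although it had the highest PFKM and PFKL levels of all.

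HK2 relative to HK1 was -3.73, -2.96 and -3.03 on the log2 scale after NRP + SCS 2 h and -4.39, -3.81 and -4.43 after NRP + HOPE 24 h. The groups did not overlap, with a difference of -0.97 (exact permutation p = 0.1). IDH1 relative to IDH2 was -7.25, -7.35 and -7.11 in NRP + HOPE 24 h and -6.79, -6.59 and -6.04 in No NRP + HOPE 2 h, a difference of -0.76 without overlap (exact permutation p = 0.1). No pair passed an adjusted p under 0.05 in the exact permutation tests, in which the smallest adjusted p was 0.433 between 2 groups and 0.0929 over 3, and 2 pairs had an unadjusted p under 0.05 over 3 groups. The other 9 pairs overlapped in every comparison.

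**Figure D5:**
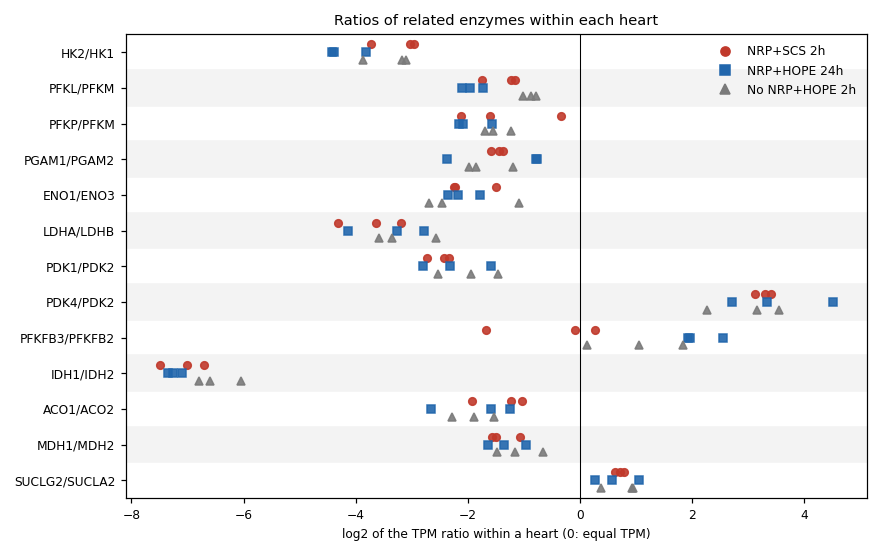
Log2 of the TPM ratio of related enzymes within each heart, 1 point per heart, for 13 pairs; 0 marks equal levels. The NRP + HOPE 24 h hearts lie to the right of all others for PFKFB3 over PFKFB2, and the No NRP + HOPE 2 h hearts lie to the right of all others for PFKL over PFKM.

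Further genes of the pathway were taken from a second list of 67. Of these, 55 were found, by symbol or by gene identifier, and 45 passed the filter. None passed an adjusted p under 0.05 in limma in any comparison. In NRP + HOPE 24 h relative to NRP + SCS 2 h, no gene was higher at an unadjusted p under 0.05 and 2 were lower, or 4.44%, against 3.14% of all genes. They were HK3, a hexokinase abundant in leukocytes, and ENO2, the neuronal enolase, with log2 fold changes of -0.78 (SE 0.31) and -0.94 (SE 0.34). HK3 averaged 3.49 TPM and ENO2 1.32 TPM over the 9 hearts. The unadjusted p was under 0.05 in 14 of 17 alternatives for HK3, reaching 0.115 without pig 24, and in 16 of 17 for ENO2. At levels as low as those of ENO2 the TPM + 1 scale understates a change, and with a pseudocount of 0.1 its log2 fold change was -1.55.

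In No NRP + HOPE 2 h relative to NRP + SCS 2 h, no gene of this list was higher and 5 were lower at an unadjusted p under 0.05, or 11.1%, against 4.65% of all genes. These were PDK4, GBE1, PPP1R3C, PDPR and ENO2, the last with a log2 fold change of -0.82 (-1.37 with a pseudocount of 0.1 and -0.54 with array weights) and an unadjusted p in limma that was under 0.05 in 13 of 17 alternatives and reached 0.114 without pig 29. PDK4, the kinase induced by fasting and fatty acids, which shuts off pyruvate dehydrogenase, was measured at 379, 314 and 318 TPM after NRP + SCS 2 h, 198, 377 and 270 TPM after NRP + HOPE 24 h and 208, 101 and 175 TPM in No NRP + HOPE 2 h. All No NRP + HOPE 2 h hearts were below all NRP + SCS 2 h hearts, whereas the NRP + HOPE 24 h hearts overlapped with both.

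The log2 fold change of PDK4 was -1.11 in No NRP + HOPE 2 h relative to NRP + SCS 2 h (SE 0.31, limma unadjusted p = 0.00313, adjusted p = 0.392). Its unadjusted p was under 0.05 in all 18 alternatives, and its adjusted p ranged from 0.0245 with array weights to 0.999. PDK4 was 4.83 to 22.8 times as abundant as PDK2 in every heart, and this ratio overlapped between all groups. In NRP + HOPE 24 h over No NRP + HOPE 2 h, PDK4 was the only gene of the list that was higher at an unadjusted p under 0.05, or 2.22% against 2.78% of all genes, with a log2 fold change of 0.81 (SE 0.31, limma unadjusted p = 0.0211, adjusted p = 0.739), which was 0.51 without pig 33 and 0.58 without pig 28, with unadjusted p of 0.127 and 0.106 in limma. With array weights it was 1.38 (unadjusted p = 0.000408, adjusted p = 0.0907 in limma).

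PDPR, the regulatory subunit that restrains the phosphatase which switches pyruvate dehydrogenase back on, was at 5.21, 3.80 and 2.97 TPM after NRP + SCS 2 h and at 0.715, 1.78 and 2.39 TPM in No NRP + HOPE 2 h. The log2 fold change was -0.96 (SE 0.36). Its unadjusted p was under 0.05 in 15 of 17 alternatives and rose to 0.0926 without pig 31, where the log2 fold change was -0.68. The kinases PDK2 and PDK4 and this phosphatase subunit were all lower at an unadjusted p under 0.05, which PDK4 alone of them kept in every alternative. The kinases PDK1 and PDK3 and the phosphatase PDP1 did not pass. Their log2 fold changes were -0.26, -0.06 and 0.12 (limma unadjusted p = 0.481, 0.868 and 0.746).

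GBE1, the glycogen branching enzyme, was at 7.28, 4.94 and 8.19 TPM after NRP + SCS 2 h and at 2.03, 2.36 and 2.95 TPM in No NRP + HOPE 2 h. PPP1R3C, which brings protein phosphatase 1 to glycogen and favours its synthesis, was at 63.6, 112 and 93.0 TPM and at 39.8, 55.8 and 57.5 TPM. Neither gene overlapped between these groups, with log2 fold changes of -1.16 (SE 0.38, limma unadjusted p = 0.00802, adjusted p = 0.498) and -0.78 (SE 0.32, limma unadjusted p = 0.0278, adjusted p = 0.622). The unadjusted p of PPP1R3C was 0.126 without pig 25, 0.0752 without pig 29 and 0.101 without pig 31.

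In NRP + HOPE 24 h over No NRP + HOPE 2 h, 2 genes of the second list were lower at an unadjusted p under 0.05, or 4.44% against 3.23% of all genes, HK3 with a log2 fold change of -0.87 (SE 0.31) and PPP1R3A, the muscle glycogen-targeting subunit, with -0.84 (SE 0.33). PPP1R3A was at 3.43, 1.69 and 3.07 TPM in NRP + HOPE 24 h and at 5.78, 3.74 and 7.57 TPM in No NRP + HOPE 2 h, and its hearts did not overlap, although they did after median-of-ratios scaling and with the mitochondrially encoded genes left out. Its unadjusted p was 0.05 or more in 4 of 17 alternatives and reached 0.127 without pig 28. HK3 was at 1.93, 1.60 and 2.28 TPM and at 3.32, 4.40 and 5.59 TPM, and its unadjusted p was under 0.05 in 15 of 17 alternatives. The summed neutrophil markers lay the other way in these groups, at 0.357 to 3.89 and 0 to 0.343 TPM. These levels were low, and CSF3R was listed at 0. Summed macrophage and lymphocyte markers overlapped, with both ends of their ranges lower in NRP + HOPE 24 h, as for HK3. Relative to NRP + SCS 2 h, where HK3 was also lower, neutrophil and macrophage ranges lay lower with overlap. The lymphocyte range was there wider at both ends. The part of leukocytes in the HK3 differences was not tested.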

How the data were processed

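RNA was measured in 1 apex biopsy from each of 9 hearts, 3 per group, grouped by the labels. Per the labels and methods, the authors trimmed reads with Trimmomatic 0.36, mapped them to the Ensembl pig genome with STAR 2.5.2b and counted unique exon reads with featureCounts (Subread 1.5.2). The build is not given in the sources used here. The authors deposited TPM values without depth, so no counting interval is given, and the number of hearts limits precision. The authors tested counts with DESeq2. Here, log2(TPM + 1) was fitted with limma 3.58.1 in R 4.3.3, with 1 mean per group, all 9 hearts, eBayes with trend, two-sided, and Benjamini-Hochberg adjustment over the 11782 genes that reached 1 TPM or more in 3 hearts or more. Ratios within hearts were compared by exact permutation tests that enumerated the assignments of hearts to groups, in Python 3.11.15 with numpy 2.4.6. Another 9 columns matched no sample and were not used, and 12006 rows carry no symbol.

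The members and lists were chosen with earlier results of these data known. Members with an unadjusted p under 0.05, the 2 with the largest absolute log2 fold change per step and comparison among those averaging at least 5 TPM, and both genes of each pair were to be described in full, as were genes of the second list with an unadjusted p under 0.05. Members whose hearts did not overlap were named after their values were seen. The fit was tested on simulated data. Alternatives were a pseudocount of 0.1, no filter, a mean of at least 5 TPM, median-of-ratios scaling, leaving out 13 mitochondrially encoded genes, the 6 hearts compared alone, eBayes without trend, array weights (statmod 1.5.0) and leaving out each heart. Robust eBayes, and overlap of hearts under both scalings, were added after the data were seen.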

Additional observations from a re-analysis of the deposited data

How the results depend on the processing

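No paired analysis was possible because pig numbers are not shared between groups. No gene named at an unadjusted p under 0.05 changed direction under an alternative, but of 27 differences given with a log2 fold change without passing it, 15 did, 10 of them without pig 30. At an unadjusted p under 0.05, array weights gave 5 members in NRP + HOPE 24 h relative to NRP + SCS 2 h (3 as reported), beside 15.4% of all genes (4.97% as reported), and 1, PFKFB2, at an adjusted p under 0.05, there (0.509% of all genes) and over the 3 groups (0 as reported). Leaving out 1 heart gave 2 to 4 members in that comparison, 0 to 4 in No NRP + HOPE 2 h relative to NRP + SCS 2 h (3 as reported; 0 without pig 24 or 31, 1 without pig 25 or 29) and 0 to 4 in NRP + HOPE 24 h over No NRP + HOPE 2 h (0 as reported; 4 without pig 27, 2 without pig 30), where median-of-ratios scaling gave 3 and leaving out mitochondrially encoded genes 1. The share of all genes was 3.18% to 10.8%, 4.12% to 9.46% and 4.09% to 9.59% with 1 heart left out, and 11.7% and 9.12% under these scalings, where 4.97%, 7.22% and 6.01% were reported. Leaving out 1 heart moved the glycolysis median for NRP + HOPE 24 h relative to NRP + SCS 2 h between -0.42 (without pig 30) and 0.23, and the pyruvate entry median for NRP + HOPE 24 h over No NRP + HOPE 2 h between -0.069 (without pig 30) and 0.41, with -0.071 under array weights. Median-of-ratios scaling moved the median of all genes by 0.12, 0.08 and 0.04 in the order of the report. Under it, hearts did not overlap for 2 higher members (1 as reported), 1 (0 as reported) and 6 (1 as reported), the last being 3 without mitochondrially encoded genes. The shares of all genes were 7.09%, 8.03% and 8.30%, and 4.78% for the last. The cause of these changes was not tested. Depth is unknown, and 3 hearts per group limit what can be detected.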
